A study of Mus musculus with 6 samples.

Results

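The Hox cluster genes are the homeobox genes that lie in 4 tight chromosomal clusters, HoxA to HoxD, and they were taken here as every gene symbol made of Hox, a cluster letter from a to d and a number that was listed in all 6 count tables. This gave 39 genes of the 19763 symbols shared by the tables as deposited, with 11 in HoxA, 10 in HoxB, 9 in HoxC and 9 in HoxD. Their levels were compared by cluster and by position number in mouse liver progenitor-like cells (LPCs), proliferating cells grown out of adult liver.

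RNA of 3 groups of LPCs was sequenced, with 2 libraries in each group. Bec_LPCs grew out of intrahepatic bile duct pieces of WT mice that were plated in matrigel, passaged and sorted, as Epcam+ cells according to the series' design text. Hep_LPCs came from hepatocytes of ROSA26tdTomato mice that had received AAV8-TBG-Cre, a virus that drives Cre from a hepatocyte promoter. NPC_LPCs came from non-parenchymal cells of AlbCreERT/R26GFP mice, that is, liver cells that are not hepatocytes. All mice were C57BL/6, labelled 6-8 weeks old, and all cells were cultured with Transition and Expansion Medium (TEM). Only the Bec_LPCs are described as embedded in matrigel and sorted, so cell source, mouse line, virus and culture cannot be told apart in these comparisons. The labels do not say whether the libraries of a group came from separate cultures or animals, and the p-values below reflect no more than how much these libraries vary, which may be technical variation.

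Hox genes encode transcription factors that give cells their address along the head to tail axis of the embryo. The order of the genes along each cluster follows the order of their expression along the body, with low position numbers toward the head and high numbers toward the tail. Adult cells of many kinds keep part of the pattern of the place they came from. Polycomb complexes hold the clusters silent, Trithorax complexes keep them active, retinoic acid induces the low-numbered genes, and Hox proteins bind DNA together with the TALE homeodomain proteins of the Pbx, Meis and Pknox families.

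In mm10 the HoxA genes run along chromosome 6 from 52162417 to 52260880 (Hoxa2 to Hoxa13) and the HoxB genes along chromosome 11 from 96194316 to 96368256 (Hoxb13 to Hoxb1). The HoxC genes lie on chromosome 15 from 102921103 to 103036852, and the HoxD genes on chromosome 2 from 74668310 to 74765142. The RefSeq table of gene starts held promoter windows for 22 of the 39 genes. Those of Hoxa5, Hoxb4 and Hoxb8 are shown because these genes stand for the 3 patterns described below: a HoxA gene read in every library, a HoxB gene read in every library, and a HoxB gene read in Bec_LPCs and Hep_LPCs but with no read in NPC_LPCs. Each is the 250 bases before the gene's start in GRCm38.p6 (mm10), printed 5′ to 3′ on the gene's strand. Capitals mark matches on either strand to TGATNNAT (a motif bound by Pbx and Hox proteins together), CCAAT or TATAAA. The windows are chr6:52204588-52204837 on the minus strand for Hoxa5, chr11:96318017-96318266 on the plus strand for Hoxb4, and chr11:96281655-96281904 on the plus strand for Hoxb8.
Hoxa5: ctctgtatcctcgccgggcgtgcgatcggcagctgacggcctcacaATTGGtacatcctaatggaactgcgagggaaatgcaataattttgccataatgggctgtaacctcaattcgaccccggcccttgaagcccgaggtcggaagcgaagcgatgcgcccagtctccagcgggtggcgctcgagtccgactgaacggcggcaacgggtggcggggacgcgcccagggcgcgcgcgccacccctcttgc
Hoxb4: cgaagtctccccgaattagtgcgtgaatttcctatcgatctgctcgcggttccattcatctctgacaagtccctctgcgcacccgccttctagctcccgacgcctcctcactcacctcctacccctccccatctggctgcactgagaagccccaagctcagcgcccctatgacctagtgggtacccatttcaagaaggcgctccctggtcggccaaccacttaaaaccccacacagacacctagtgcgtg
Hoxb8: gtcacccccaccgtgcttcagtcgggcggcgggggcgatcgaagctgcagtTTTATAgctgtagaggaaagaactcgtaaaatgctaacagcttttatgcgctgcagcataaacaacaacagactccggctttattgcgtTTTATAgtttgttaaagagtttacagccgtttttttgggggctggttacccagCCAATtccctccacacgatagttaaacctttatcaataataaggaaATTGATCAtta
The Hoxa5 window held 1 CCAAT, beginning 204 bases before the start. The Hoxb8 window held TGATNNAT at 11 bases, CCAAT at 57 bases and TATAAA at 199 and 110 bases before the start, while no match lay in the Hoxb4 window. Over the 24 windows of the 22 Hox genes, TGATNNAT was found in 4, CCAAT in 14 and TATAAA in 4, against 7.68%, 33.8% and 12.4% of all 32851 windows. The Hox windows held a median of 12.5 CpG pairs, against 6 over all windows, with 28 in that of Hoxa5, 14 in that of Hoxb4 and 12 in that of Hoxb8. These matches describe the letters of the windows and are not binding sites shown by these data.

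Hox genes were expressed at a low level in all 6 libraries. Of the 39, 14 had no read in any library: Hoxa13, Hoxb1, Hoxc5, Hoxc9, Hoxc11, Hoxc12, Hoxd1, Hoxd3, Hoxd4 and Hoxd9 to Hoxd13. A library with 0 reads allows up to 3 reads at this depth, which is 0.127 to 0.178 CPM (reads scaled to the library's total count, adjusted by TMM). Reads of 5 genes were found in every library, 13 genes exceeded 1 CPM in at least 1 library, and the highest value was 15.2 CPM (263 reads), for Hoxa3 in NPC_LPCs library 1. All intervals and floors here cover counting error only. Total counts were 22985844 and 22634867 in Bec_LPCs libraries 1 and 2, 18123118 and 17575998 in Hep_LPCs, and 17919947 and 20625957 in NPC_LPCs.

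**Figure D1:**
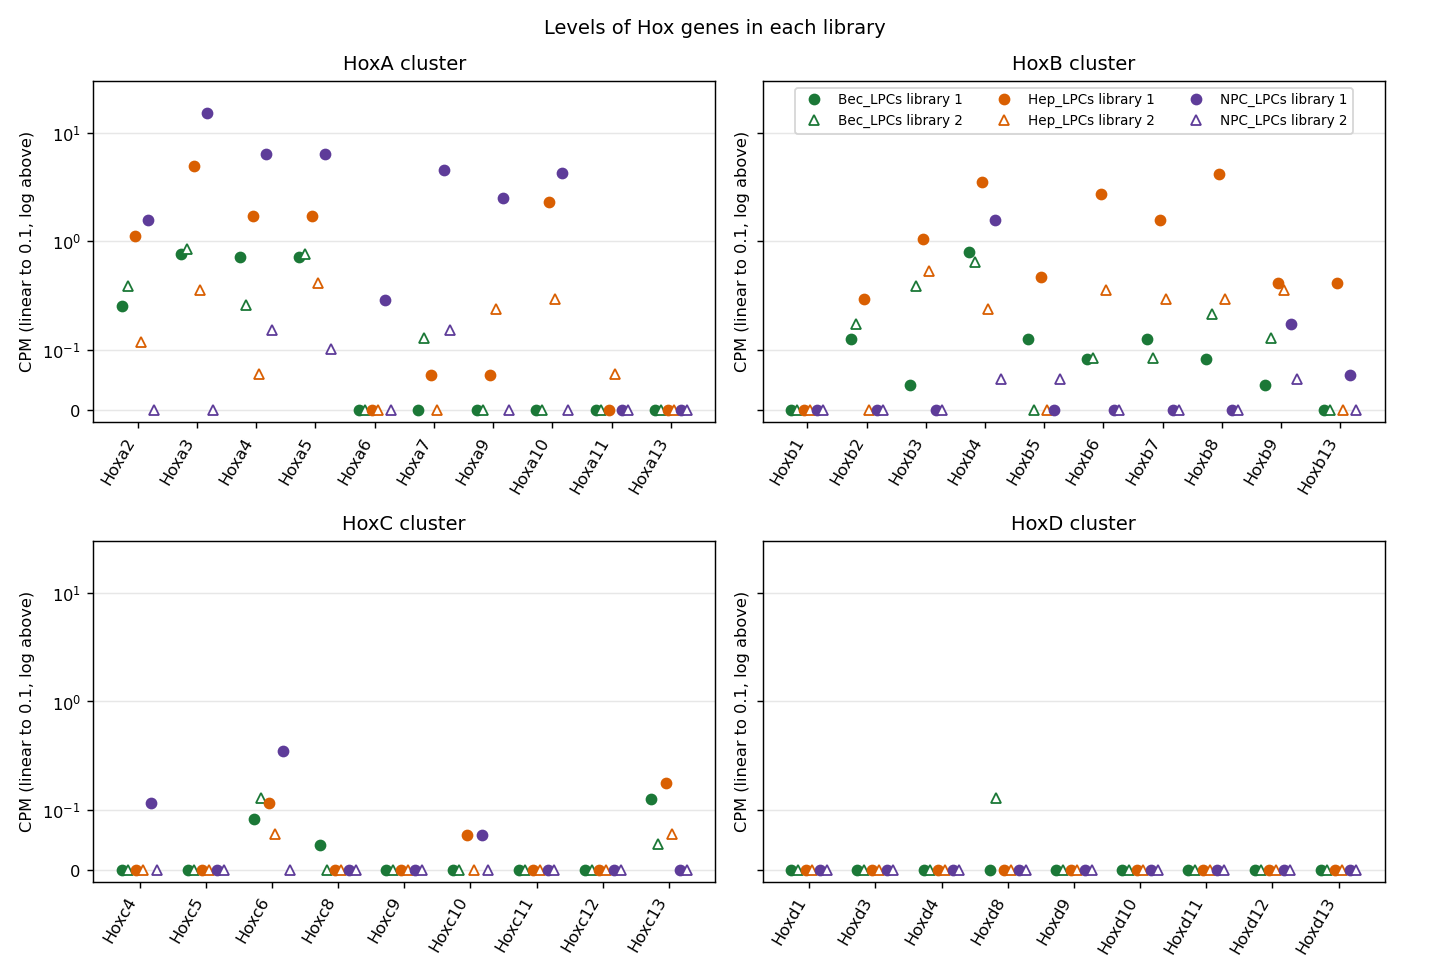
Levels of Hox genes in CPM (axis log except at the lowest values) by position number and cluster in each of the 6 libraries. Genes at 0 reads are drawn at 0, and a gene not reported here by name is left out. CPM is not scaled for gene length. HoxA genes carried the highest values, up to 15.2 CPM, whereas no HoxC gene exceeded 0.346 CPM and no HoxD gene 0.129 CPM.

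The reads fell almost wholly in HoxA and HoxB. Of 1928 Hox reads over the 6 libraries, HoxA held 1504, HoxB 394, HoxC 27 and HoxD 3. The highest HoxC value was 6 reads (0.346 CPM), and the 3 HoxD reads were all of Hoxd8 in Bec_LPCs library 2. HoxA genes took 64.6% and 59.8% of the Hox reads in Bec_LPCs, 58.1% and 62.6% in Hep_LPCs, and 95.9% and 82.4% in NPC_LPCs. HoxB genes took 30.1% and 34.2% in Bec_LPCs, 40.9% and 35.4% in Hep_LPCs, and 3.20% and 17.6% in NPC_LPCs. The HoxB share was thus lower in both NPC_LPCs libraries than in any of the other 4, although the second of them held 17 Hox reads in all. By position, the genes numbered 1 to 4 took most of the reads everywhere, with 69.9% and 65.8% in Bec_LPCs, 60.3% and 58.6% in Hep_LPCs, and 66.7% and 58.8% in NPC_LPCs. Genes numbered 9 to 13 took 3.54% and 3.42% in Bec_LPCs, 9.45% and 17.2% in Hep_LPCs, and 12.6% and 5.88% in NPC_LPCs.

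Summed over all members, Hox expression was even in the Bec_LPCs libraries and very uneven in the other groups. The sum was 4.77 CPM (exact Poisson 95% interval 3.93 to 5.73) and 5.02 CPM (4.15 to 6.01) in Bec_LPCs libraries 1 and 2. In Hep_LPCs it was 35.9 CPM (33.2 to 38.9) and 5.87 CPM (4.77 to 7.15), and in NPC_LPCs 55.9 CPM (52.4 to 59.5) and 0.864 CPM (0.503 to 1.38). Library 1 was 6.12 times library 2 in Hep_LPCs and 64.7 times in NPC_LPCs, against 0.951 times in Bec_LPCs. The group means were 4.89 ± 0.174 CPM in Bec_LPCs, 20.9 ± 21.3 CPM in Hep_LPCs and 28.4 ± 38.9 CPM in NPC_LPCs (SD, n = 2 each). The SD exceeded the mean in Hep_LPCs and in NPC_LPCs. Both Bec_LPCs sums lay below both Hep_LPCs sums, though their counting intervals overlapped that of Hep_LPCs library 2, and both lay inside the range of NPC_LPCs, so the sums do not order the groups beyond their spread.

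**Figure D2:**
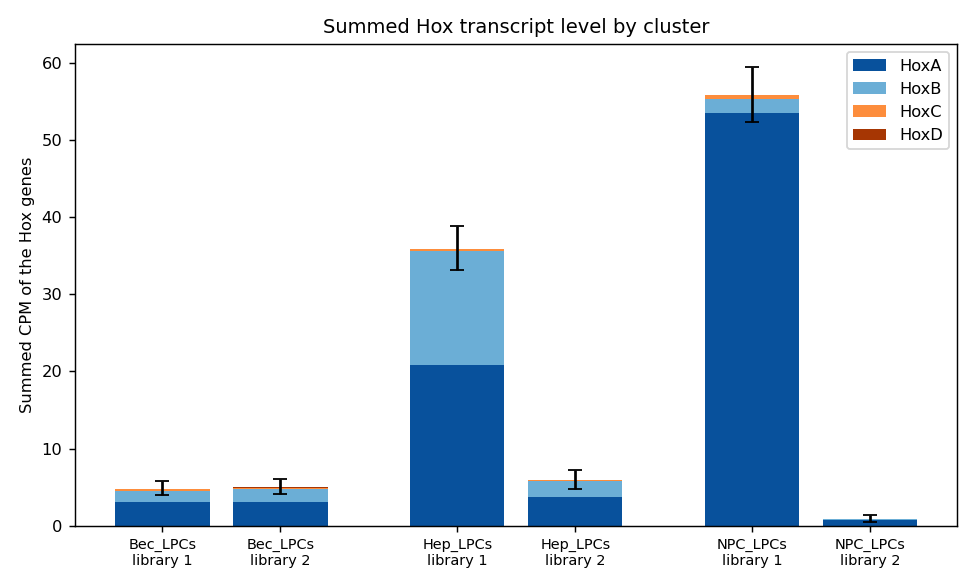
Summed CPM of the HoxA, HoxB, HoxC and HoxD genes in each library of Bec_LPCs, Hep_LPCs and NPC_LPCs. The Bec_LPCs libraries stand at 4.77 and 5.02 CPM, while library 1 stands far above library 2 in Hep_LPCs (35.9 and 5.87 CPM) and in NPC_LPCs (55.9 and 0.864 CPM).

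The same split between replicates ran through nearly every measured member. Of the genes with at least 10 reads over both libraries of a group, 12 Hox genes in Hep_LPCs were all higher in library 1, and 9 of them by at least 4-fold, against 2.58% of 12540 genes. In NPC_LPCs all 9 Hox genes so measured were at least 4-fold higher in library 1, against 3.63% of 12656 genes. Among genes with no more reads than the highest of these Hox genes, those background shares were 9.29% in Hep_LPCs and 12.1% in NPC_LPCs, beside 3.26% in Bec_LPCs. In Bec_LPCs 0 of 7 were at least 4-fold higher in library 1 (0.329% of 13354 genes) and 1, Hoxb3, was at least 4-fold lower (0.419%). The median log2 ratio of library 1 to library 2, with 0.5 reads added, was -0.10 over the Hox genes of Bec_LPCs, 2.84 over those of Hep_LPCs and 5.65 over those of NPC_LPCs. A gene past the minimum of 10 reads through 1 library alone had to differ, so these counts describe the libraries and carry no test.

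**Figure D3:**
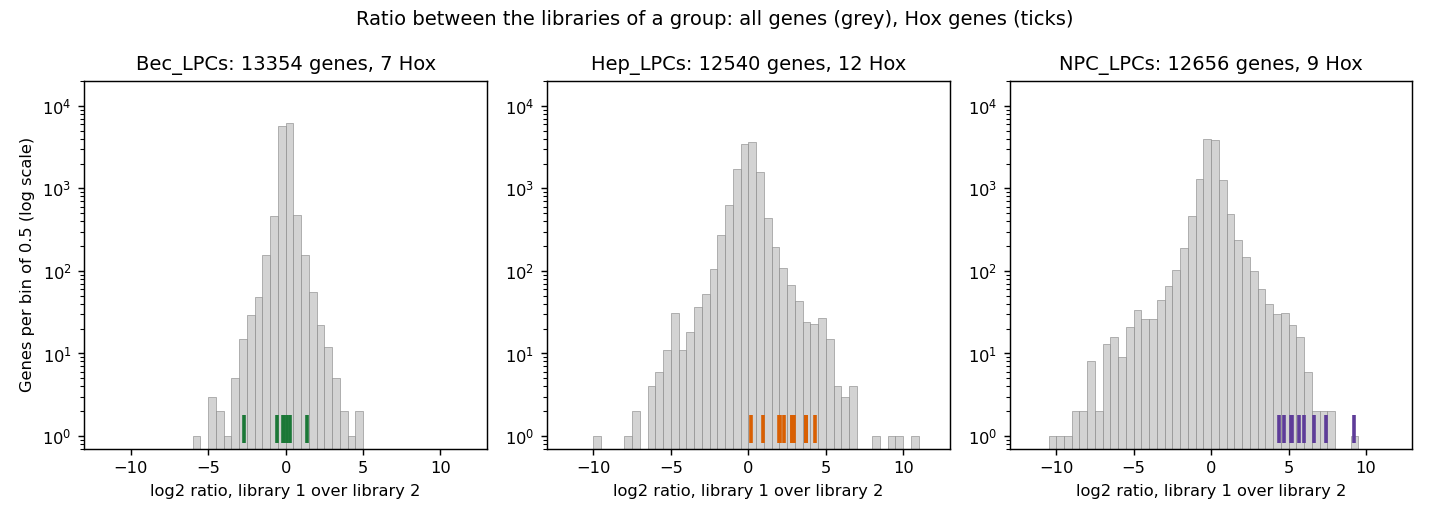
Log2 ratio of library 1 to library 2 within each group for Hox genes with at least 10 reads over both libraries, beside that of all such genes. Hox genes lie near 0 in Bec_LPCs (median -0.10) and above it in Hep_LPCs (median 2.84) and NPC_LPCs (median 5.65).

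Other values differed between the same libraries. Ddx3y, a Y-linked helicase gene, had 1 read in Hep_LPCs library 2 against 1032 reads in library 1. The Y-linked genes Eif2s3y, Kdm5d and Uty went the same way, with 1, 0 and 1 reads in library 2 against 1104, 853 and 415 in library 1. The summed macrophage and lymphocyte markers stood at 120 and 55.2 CPM in Hep_LPCs libraries 1 and 2, and at 248 and 74.7 CPM in NPC_LPCs. Cd14 and Cd68 held most of these sums, with 161 and 83.9 CPM in NPC_LPCs library 1 and 52.7 and 20.9 CPM in library 2, whereas Ptprc, which marks all leukocytes, was at 0.116 and 0.254 CPM and the macrophage gene Adgre1 at 0 and 0.0508 CPM in NPC_LPCs libraries 1 and 2. The biliary markers, which were present in every library, stood at 5875 and 3176 CPM in Hep_LPCs and at 10450 and 5020 CPM in NPC_LPCs. Clec4f and Cd3e, which define Kupffer cells and T cells, were at 0 in all 6 libraries. Of the listed mesothelial markers, all but Krt19 were higher in library 1 of NPC_LPCs, and all but Krt19 were higher in library 2 of Hep_LPCs. Wt1, a mesothelial transcription factor, was at 5.37 and 0.71 CPM in NPC_LPCs libraries 1 and 2, and at 0.176 and 0.771 CPM in Hep_LPCs. Upk1b, a uroplakin of mesothelium, was at 35.0 and 0.41 CPM in NPC_LPCs, and at 3.22 and 35.7 CPM in Hep_LPCs. Krt19 was at 117 and 282 CPM in NPC_LPCs, and at 1511 and 932 CPM in Hep_LPCs. The part of these differences in the Hox levels was not tested, and in bulk RNA fewer cells of a type and less RNA per cell cannot be told apart.

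Between the groups no Hox gene was called different. Of the 39, 7 passed the filter on low counts, among them Hoxa2 to Hoxa5, Hoxa10 and Hoxb4, and edgeR's quasi-likelihood test, with p adjusted by Benjamini-Hochberg over all genes tested and a threshold of 0.05, called 0 of them in each of the 3 comparisons. Of all genes tested, 11.3% were called in Bec_LPCs against NPC_LPCs, 33.4% in Bec_LPCs against Hep_LPCs and 0.795% in Hep_LPCs against NPC_LPCs. At an unadjusted p under 0.05 the count was again 0 of 7 in each, against 31.5%, 47.3% and 22.2% of all genes. DESeq2's Wald test called 1 of them in Bec_LPCs against NPC_LPCs (22.5% of all genes), 2 in Bec_LPCs against Hep_LPCs (42.0%) and 0 in Hep_LPCs against NPC_LPCs (12.3%). The median log2 fold change over the 7 was -2.73 in Bec_LPCs against NPC_LPCs, -1.37 in Bec_LPCs against Hep_LPCs and -0.72 in Hep_LPCs against NPC_LPCs, beside 0.01, 0.03 and 0.00 over all genes. The first 2 of these comparisons share the Bec_LPCs libraries, and a gene that passed the filter only where it is high had to differ.

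**Figure D4:**
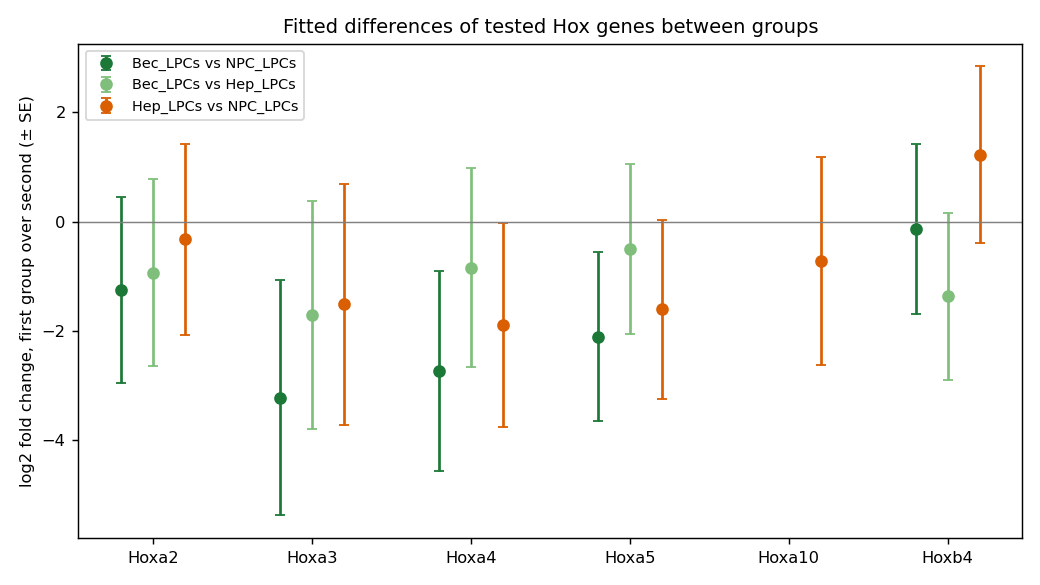
Log2 fold change ± SE of 6 Hox genes past the filter on low counts in each of the 3 comparisons, from edgeR. Hoxa10 is left out of the Bec_LPCs comparisons, where that group is at 0 reads, and 0 of the genes passed an adjusted p of 0.05.

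Hoxa3, which patterns the pharyngeal organs such as the thymus, had the most reads of any Hox gene in a single library, and 0 in another library of the same group. It was at 0.760 and 0.857 CPM in Bec_LPCs, at 4.97 and 0.356 CPM in Hep_LPCs, and at 15.2 and 0 CPM in NPC_LPCs. The Bec_LPCs values fell inside the range of each of the other groups. The log2 fold change of Hoxa3 was -3.22 ± 2.15 (SE) in Bec_LPCs against NPC_LPCs, -1.71 ± 2.09 in Bec_LPCs against Hep_LPCs and -1.51 ± 2.20 in Hep_LPCs against NPC_LPCs (edgeR adjusted p = 0.356, 0.549 and 0.726). Without NPC_LPCs library 1 the fold changes of Hoxa2 to Hoxa5 against NPC_LPCs turned positive in both comparisons.

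Hoxa2, Hoxa4 and Hoxa5, like Hoxa3, were highest in NPC_LPCs library 1 and next highest in Hep_LPCs library 1. These genes, and those named in the next paragraphs on single members, were chosen after their values were seen. Hoxa5, which acts in lung development, was at 0.717 and 0.772 CPM in Bec_LPCs, at 1.70 and 0.415 CPM in Hep_LPCs, and at 6.35 and 0.102 CPM in NPC_LPCs. Hoxa4 was at 0.717 and 0.257 CPM in Bec_LPCs, at 1.70 and 0.0593 CPM in Hep_LPCs, and at 6.41 and 0.152 CPM in NPC_LPCs. Library 1 was thus the higher one of Hep_LPCs and of NPC_LPCs for both genes, with the Bec_LPCs values between. Hoxa2, a gene of hindbrain and pharyngeal arch identity, was at 0.253 and 0.386 CPM in Bec_LPCs, at 1.11 and 0.119 CPM in Hep_LPCs, and at 1.56 and 0 CPM in NPC_LPCs. Over these 3 genes and the 3 comparisons the log2 fold changes ran between -2.73 and -0.33, and the edgeR adjusted p between 0.355 and 0.936.

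At the tail end of HoxA, reads were found in Hep_LPCs and in 1 NPC_LPCs library but not in Bec_LPCs. Hoxa10, known for its part in the uterus and the lumbar skeleton, had 0 and 0 reads in Bec_LPCs, 39 and 5 in Hep_LPCs, and 74 and 0 in NPC_LPCs. Against a floor of 3 reads per library, Hoxa10 was at least 10.1-fold lower in Bec_LPCs than in Hep_LPCs (edgeR adjusted p = 0.150) and at least 16.7-fold lower than in NPC_LPCs (edgeR adjusted p = 0.177). The first bound rests mainly on Hep_LPCs library 1. Library 2 alone, with its 5 reads taken as exact, stood at 2.32 times the floor. The bound against NPC_LPCs rests on NPC_LPCs library 1, since library 2 was also at 0. DESeq2's Wald test called Hoxa10 in both comparisons (adjusted p = 0.0207 against Hep_LPCs, and 0.0187 against NPC_LPCs). Hoxa9, a gene of blood progenitors and of leukaemia, had 0 and 0 reads in Bec_LPCs, 1 and 4 in Hep_LPCs, and 43 and 0 in NPC_LPCs. Hoxa7 had 0 and 3 reads in Bec_LPCs, 1 and 0 in Hep_LPCs, and 79 and 3 in NPC_LPCs. All HoxA genes numbered 9 to 13 together had 0 and 0 reads in Bec_LPCs, 40 and 10 in Hep_LPCs, and 117 and 0 in NPC_LPCs. Both Bec_LPCs libraries had the highest total counts of the 6, and NPC_LPCs library 2, also at 0 reads here, had the next highest. The cause of the lack of reads was not tested.

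In HoxB, the groups differed in which genes were read. Hoxb4, used to expand blood stem cells (chromosome 11, 96318267 to 96321638), was read in every library, at 0.802 and 0.643 CPM in Bec_LPCs, 3.51 and 0.237 CPM in Hep_LPCs, and 1.56 and 0.0508 CPM in NPC_LPCs. The 3 groups overlapped, and the log2 fold change of Hoxb4 was -0.14 ± 1.55, -1.37 ± 1.52 and 1.22 ± 1.61 in Bec_LPCs against NPC_LPCs, Bec_LPCs against Hep_LPCs and Hep_LPCs against NPC_LPCs (edgeR adjusted p = 0.963, 0.512 and 0.689). The sign of the first of these turned with scaling by library size alone.

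Hoxb6, Hoxb7 and Hoxb8, neighbours in the middle of the cluster that act in the trunk, were read in both Bec_LPCs and both Hep_LPCs libraries and had no read in either NPC_LPCs library. Hoxb8, which also arrests myeloid progenitors when overexpressed (chromosome 11, 96281905 to 96285315), had 2 and 5 reads in Bec_LPCs, 72 and 5 in Hep_LPCs, and 0 and 0 in NPC_LPCs. Hoxb6 had 2 and 2 reads in Bec_LPCs, 47 and 6 in Hep_LPCs, and 0 and 0 in NPC_LPCs. Hoxb7 had 3 and 2 reads in Bec_LPCs, 27 and 5 in Hep_LPCs, and 0 and 0 in NPC_LPCs. NPC_LPCs library 1, the library with the highest HoxA levels, was thus at 0 for all 3 genes. Summed over the 3, the level was 0.295 and 0.386 CPM in Bec_LPCs and 8.55 and 0.949 CPM in Hep_LPCs, against 0 and 0 CPM in NPC_LPCs. Against a floor of 3 reads per library this sum was at least 29.2-fold higher in Hep_LPCs than in NPC_LPCs. The Bec_LPCs sums, of 7 and 9 reads, were 2.09 times that floor (1.81 and 2.37 times from libraries 1 and 2). Their counting intervals, 0.119 to 0.609 and 0.176 to 0.732 CPM, overlapped those of NPC_LPCs, 0 to 0.213 and 0 to 0.1875 CPM. No lower bound is therefore given for Bec_LPCs. The bound for Hep_LPCs rests mainly on library 1, and library 2 alone gives at least 5.83-fold.

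Hoxb3 also had reads in both other groups and none in NPC_LPCs, with 1 and 9 in Bec_LPCs and 18 and 9 in Hep_LPCs. None of these 4 genes passed the filter on low counts. Without that filter, the edgeR adjusted p in Hep_LPCs against NPC_LPCs was 0.0905 for Hoxb6, 0.104 for Hoxb8 and 0.133 for each of Hoxb3 and Hoxb7. Of the 23 Hox genes in that fit, 4 were thus higher in Hep_LPCs at an unadjusted p under 0.05, against 8.89% of all genes, and 1, Hoxa7, was lower, against 9.76%. In Bec_LPCs against Hep_LPCs 2 of 25 were lower at that level (19.2% of all genes), Hoxb6 and Hoxb8, and both were called without Hep_LPCs library 2 (edgeR adjusted p = 0.0320 and 0.0368). In Bec_LPCs against NPC_LPCs 3 of 25 were lower (13.3%), Hoxa7, Hoxa9 and Hoxa10, and 0 Hox genes had an edgeR adjusted p under 0.05 in any of the 3 comparisons, against 8.31% of all genes in Bec_LPCs against NPC_LPCs, 24.9% in Bec_LPCs against Hep_LPCs and 3.25% in Hep_LPCs against NPC_LPCs.

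The remaining members with reads stayed at 8 reads or fewer in every library. Hoxb2, Hoxb5, Hoxb9 and Hoxb13 reached at most 8 reads, and Hoxa6 and Hoxa11 at most 5. Of HoxC, Hoxc4, Hoxc6, Hoxc8, Hoxc10 and Hoxc13 had reads, at most 6 in a library. At this depth differences in these genes were not detectable.

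Scaled to exon length (CPM per kilobase), the first place in Bec_LPCs was held by Hoxa4 in library 1 (0.450) and by Hoxa5 in library 2 (0.411). In Hep_LPCs library 1, Hoxb8 stood at 1.60, Hoxb6 at 1.40 and Hoxb4 at 1.37 CPM per kilobase. In NPC_LPCs library 1, Hoxa4 stood at 4.02, Hoxa5 at 3.38, Hoxa3 at 2.53 and Hoxa7 at 1.59 CPM per kilobase. The authors' deposited FPKM is given for Hep_LPCs and NPC_LPCs only. In NPC_LPCs library 1 it was 2.70 for Hoxa5, 2.65 for Hoxa7, 2.50 for Hoxa4 and 1.42 for Hoxa3. The order of these genes in that library thus differed between these scales.

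Some members share sequence with neighbours, and reads of these could have been split or lost. Hoxd3 and Hoxd4 share 388 exonic bases and Hoxc5 and Hoxc10 share 166, and of these 4 genes 3 had no read and Hoxc10 had 2. The transcripts Gm28308, over Hoxa2 and Hoxa3, and Gm28230, over Hoxd3 and Hoxd4, are listed in the Bec_LPCs tables only, at 0 reads in both libraries. Gm28308 covers 15.0% of the exonic length of Hoxa2 and 8.01% of that of Hoxa3, so reads of these genes may have been counted differently in Bec_LPCs. Hoxb3 shares 52.9% of its exonic length with the antisense Hoxb3os and Hoxa7 20.4% with Hoxaas3. No source used here gives the strand setting, so reads of a gene and its antisense partner cannot be told apart. None of the 12 antisense and cluster RNAs of the list kept for them was among the genes shared by all libraries.

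Of 9 TALE genes, the DNA-binding partners of Hox proteins, 8 were tested. Of these 0 were called in Bec_LPCs against NPC_LPCs (11.3% of all genes) and 0 in Hep_LPCs against NPC_LPCs (0.795%). In Bec_LPCs against Hep_LPCs 1 was higher and 1 lower (33.4% of all genes called in either direction). Pbx3, a Pbx cofactor, fell to 13.1 and 12.3 CPM in Bec_LPCs, against 37.3 and 22.7 CPM in Hep_LPCs, a log2 fold change of -1.24 ± 0.28 (edgeR adjusted p = 0.0235). Pbx3 was at 22.5 and 21.5 CPM in NPC_LPCs. Meis2, of the Meis family, was at 33.3 and 31.4 CPM in Bec_LPCs, 33.5 and 33.2 CPM in Hep_LPCs, and 28.7 and 20.1 CPM in NPC_LPCs, and was not called.

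**Figure D5:**
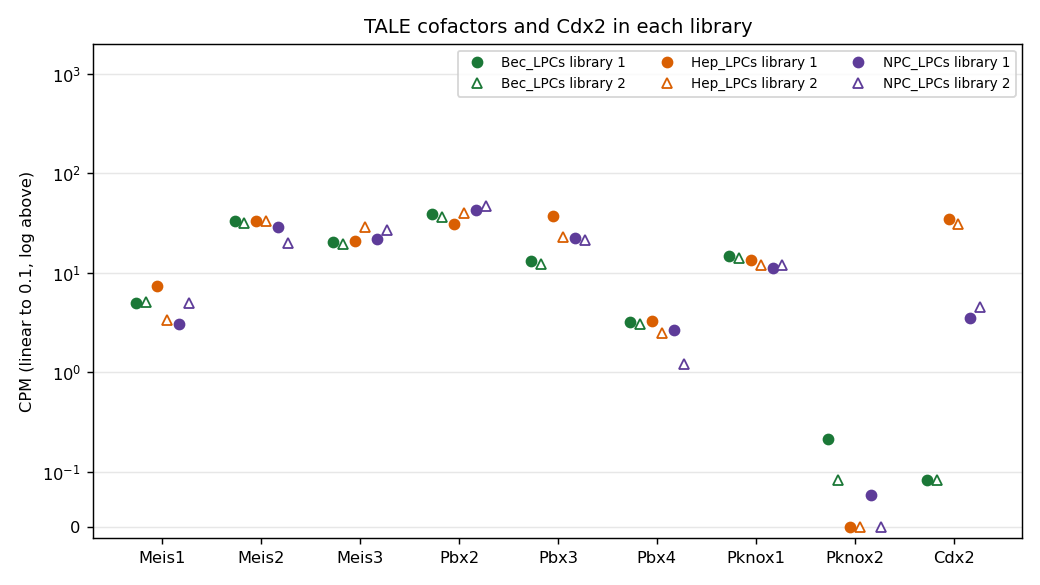
Level in CPM (axis log except at the lowest values) of Cdx2 and of TALE genes in each library of Bec_LPCs, Hep_LPCs and NPC_LPCs. Meis2 stands between 20.1 and 33.5 CPM in all libraries, while Cdx2 stands under 0.1 CPM in Bec_LPCs, above 30 CPM in Hep_LPCs and at 3.52 and 4.52 CPM in NPC_LPCs.

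Cdx2, a ParaHox gene of the intestine whose product activates central Hox genes in the embryo, differed in all 3 comparisons. It was at 0.0844 and 0.0857 CPM in Bec_LPCs (2 reads each), at 34.6 and 30.9 CPM in Hep_LPCs, and at 3.52 and 4.52 CPM in NPC_LPCs. The 3 groups did not overlap, and the libraries within each group lay close together. The log2 fold change of Cdx2 was -8.49 ± 0.39 in Bec_LPCs against Hep_LPCs (edgeR adjusted p = 4.95e-04), -5.46 ± 0.37 in Bec_LPCs against NPC_LPCs (edgeR adjusted p = 0.00213) and 3.0 ± 0.35 in Hep_LPCs against NPC_LPCs (edgeR adjusted p = 0.0382). The only other of the 8 ParaHox and Evx genes to be tested was Pdx1, the pancreas and duodenum factor, with 10 and 5 reads in Bec_LPCs, 13 and 13 in Hep_LPCs, and 0 and 0 in NPC_LPCs, and it was not called.

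Some chromatin regulators of the clusters were called, against 33.4% of all genes in Bec_LPCs against Hep_LPCs, 11.3% in Bec_LPCs against NPC_LPCs and 0.795% in Hep_LPCs against NPC_LPCs. Of 19 Polycomb genes, Bec_LPCs had 2 higher and 3 lower than Hep_LPCs, 0 higher and 1 lower than NPC_LPCs, and 0 were called in Hep_LPCs against NPC_LPCs. Ezh2, the H3K27 methyltransferase of dividing cells, fell to 84.5 and 91.0 CPM in Bec_LPCs, against 273 and 170 CPM in Hep_LPCs (log2 fold change -1.34 ± 0.28, edgeR adjusted p = 0.0179). Its paralogue Ezh1 rose to 38.7 and 32.5 CPM in Bec_LPCs, against 15.3 and 16.5 CPM in Hep_LPCs (1.16 ± 0.21, edgeR adjusted p = 0.0122), and Cbx6 rose by 0.81 ± 0.16 (edgeR adjusted p = 0.0150). Of 15 Trithorax-side genes, Bec_LPCs had 0 higher and 4 lower than Hep_LPCs, 0 higher and 1 lower than NPC_LPCs, and 0 were called in Hep_LPCs against NPC_LPCs. Dpy30, a subunit of the H3K4 methyltransferases, fell to 24.7 and 25.9 CPM in Bec_LPCs, against 51.5 and 60.8 CPM in Hep_LPCs (-1.15 ± 0.22, edgeR adjusted p = 0.0147). Psip1, a chromatin tether of Kmt2a complexes, and Men1, their menin subunit, had log2 fold changes of -0.91 ± 0.20 and -1.20 ± 0.30 in the same comparison (edgeR adjusted p = 0.0210 and 0.0306).

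Genes of the retinoic acid pathway, which induces low-numbered Hox genes in the embryo, were also counted. Of 17 listed, 14 were tested in the Bec_LPCs comparisons, with 1 higher and 0 lower against NPC_LPCs (11.3% of all genes called in either direction) and 1 higher and 2 lower against Hep_LPCs (33.4%), and 0 of 13 were called in Hep_LPCs against NPC_LPCs. Aldh1a2, which makes retinoic acid, was at 24.6 and 34.1 CPM in Bec_LPCs, 0.527 and 0.534 CPM in Hep_LPCs, and 2.08 and 5.08 CPM in NPC_LPCs. Its log2 fold change was 5.77 ± 0.57 in Bec_LPCs against Hep_LPCs and 3.03 ± 0.48 in Bec_LPCs against NPC_LPCs (edgeR adjusted p = 0.00303 and 0.0219). Stra6, a retinol transporter induced by retinoic acid, was at 4.73 and 2.96 CPM in Bec_LPCs, 562 and 417 CPM in Hep_LPCs, and 68.5 and 7.93 CPM in NPC_LPCs. It fell by 6.99 ± 1.13 on the log2 scale in Bec_LPCs against Hep_LPCs (edgeR adjusted p = 0.00959), and Rarg, a retinoic acid receptor, by 0.96 ± 0.19 (edgeR adjusted p = 0.0153). Within NPC_LPCs, Stra6 was higher in library 1, as the HoxA genes were, and whether the 2 are connected was not tested.

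Some of the genes that flank the clusters were called between groups. Of 19, 17 were tested in the Bec_LPCs comparisons, with 3 higher and 1 lower against NPC_LPCs (11.3% of all genes called in either direction) and 2 higher and 1 lower against Hep_LPCs (33.4%), and 0 of 16 were called in Hep_LPCs against NPC_LPCs. Skap1, an adaptor gene beyond the Hoxb1 end of HoxB, was at 4.47 and 5.79 CPM in Bec_LPCs, 0.117 and 0.119 CPM in Hep_LPCs, and 0.289 and 0.356 CPM in NPC_LPCs (edgeR adjusted p = 0.00411 against Hep_LPCs and 0.0151 against NPC_LPCs). Skap2, beyond the low-numbered end of HoxA, was at 42.6 and 37.6 CPM in Bec_LPCs, 35.2 and 25.5 CPM in Hep_LPCs, and 69.8 and 34.6 CPM in NPC_LPCs, and was not called. Hnrnpa1, an RNA-binding protein gene near HoxC, fell by 1.41 ± 0.16 on the log2 scale in Bec_LPCs against Hep_LPCs (edgeR adjusted p = 0.00391), and Atp5g3, near HoxD, rose by 1.19 ± 0.20 in Bec_LPCs against NPC_LPCs (edgeR adjusted p = 0.0241).

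Markers of other liver cells were also measured beside the Hox genes. The shares of all genes called were 33.4% in Bec_LPCs against Hep_LPCs, 11.3% in Bec_LPCs against NPC_LPCs and 0.795% in Hep_LPCs against NPC_LPCs. Mesenchymal and stellate markers, without the widely expressed Vim, summed to 198 and 234 CPM in Bec_LPCs, 16.2 and 10.3 CPM in Hep_LPCs, and 6.64 and 21.4 CPM in NPC_LPCs, with Lum, Lrat and Tcf21 at 0 in all 6 libraries. With Vim in the list, 6 of 11 tested were called higher in Bec_LPCs against Hep_LPCs, 4 of 11 higher against NPC_LPCs, and 0 of 6 in Hep_LPCs against NPC_LPCs. Bec_LPCs, the group with the highest mesenchymal sum, had Hox sums of 4.77 and 5.02 CPM. Endothelial markers summed to 2.43 to 7.84 CPM over the 6 libraries (1 of 2 tested lower in Bec_LPCs against Hep_LPCs, and 0 called in the other comparisons). Mesothelial markers, which include Krt19 of bile ducts, summed to 520.4 to 1798 CPM and held 0 called of 5 in each comparison. Of the macrophage and lymphocyte markers 1 of 5 was called higher in Bec_LPCs against each other group and 0 of 3 in Hep_LPCs against NPC_LPCs. The hepatocyte markers summed to 136 and 113 CPM in Bec_LPCs, 288.5 and 288.5 CPM in Hep_LPCs, and 30.7 and 52.2 CPM in NPC_LPCs. Hnf4a held most of these sums, with 125.5 and 103.8 CPM in Bec_LPCs and 247.8 and 262.6 CPM in Hep_LPCs. In NPC_LPCs Hnf4a stood at 28.8 and 51.2 CPM. Alb was at 2.40 and 0.119 CPM in Hep_LPCs, and Cyp2e1 at 0 in all 6 libraries. Of these markers 3 of 5 were higher in Bec_LPCs against NPC_LPCs, 3 of 5 lower in Bec_LPCs against Hep_LPCs and 2 of 4 higher in Hep_LPCs against NPC_LPCs. Of 7 biliary markers 2 were higher and 1 lower in Bec_LPCs against NPC_LPCs, 1 was higher in Bec_LPCs against Hep_LPCs, and 0 were called in Hep_LPCs against NPC_LPCs. The part of these cells in the Hox levels was not tested.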

How the data were processed

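The 6 mRNA libraries of mouse LPCs were sequenced as read pairs after preparation with a stranded kit, as the labels' protocols state. The submitters' processing notes name the build mm10 and HISAT2, HTSeq, Cufflinks, Trimmomatic and DESeq. No source used here gives their versions, roles or order, the annotation or the strand setting. One table per library was deposited by the authors, with raw counts per gene symbol and, for Hep_LPCs and NPC_LPCs only, FPKM (scaled for length and depth by the authors), per the file headers. Older symbols were updated with reference synonyms (16 in Bec_LPCs, 837 in the others), which left 20571 shared genes. These held 95.3% to 95.4% of the counts in Bec_LPCs and 99.3% to 99.4% in the others. The Bec_LPCs tables held 14 rows without a name (0.000191% and 0.000181% of counts), which were left out.

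Groups and replicate numbers came from the sample titles. Bec_LPCs were compared with each other group in a fit of all 6 libraries, and Hep_LPCs with NPC_LPCs in a fit of their 4. Genes passed edgeR's filterByExpr, libraries were scaled by TMM, and the quasi-likelihood test (two-sided, robust glmQLFit and glmQLFTest) was adjusted by Benjamini-Hochberg over all genes tested (edgeR 4.0.16, limma 3.58.1, DESeq2 1.42.0, R 4.3.3). The SE of a log2 fold change is its absolute value over the root of F. The code was tested on simulated data. GENCODE M21 (mm10) gave the coordinates, counted from 1, and the exonic lengths. Alternatives were other scaling, no low-count filter, symbols as deposited, protein-coding genes with at most 25% exonic overlap, DESeq2, limma-voom, a replicate block, other library sets, each library left out, and limma on log2(FPKM + 1).

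Members were given in every library where called or at a group mean of at least 5 CPM, the rest by ranges unless said otherwise, and up to 3 genes of each other list by smallest adjusted p. The members, the lists of cofactors, regulators, flanking genes and cell markers, and the tests were chosen with earlier results of these data known. Some genes counted in the totals are not reported here by name.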

Additional observations from a re-analysis of the deposited data

How the results depend on the processing

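With 2 libraries a group and few reads, the fold changes of single Hox genes were not stable. The count of Hox genes called, 0 in each comparison, became 1 (Hoxa10) in Bec_LPCs against NPC_LPCs and 2 (Hoxa10 and a gene not reported here) in Bec_LPCs against Hep_LPCs with DESeq2's Wald test, 1 in Bec_LPCs against Hep_LPCs with only its 4 libraries, and 0 to 2 there with each library left out (1 without either NPC_LPCs library, and Hoxb6 and Hoxb8 without Hep_LPCs library 2, where the lone sample is assumed to vary like the other groups and these genes pass the filter). It stayed at 0 in Hep_LPCs against NPC_LPCs under every alternative run. Differences between libraries 1 and 2 were correlated between groups over all tested genes. The correlations were -0.0584 between Bec_LPCs and Hep_LPCs, 0.116 between Bec_LPCs and NPC_LPCs, and -0.0288 between Hep_LPCs and NPC_LPCs. Such values cannot settle whether same-numbered libraries were handled together. With the replicate number as a block 0 Hox genes were called in each comparison.

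The sign of the log2 fold change turned in these cases, all without a call. In Bec_LPCs against NPC_LPCs, Hoxb4 (-0.14) gave 0.014 with library size alone, 1.16 with limma-voom and 1.02 with the block, Hoxa2 gave 0.82 with limma-voom and 0.015 with the block, and Hoxa3 gave 0.56 with limma-voom. In Bec_LPCs against Hep_LPCs, Hoxa4 gave 0.21 with limma-voom and 0.15 with the block, where Hoxa2 gave 0.047 and Hoxa5 0.17. In Hep_LPCs against NPC_LPCs, limma-voom gave 1.09 for Hoxa2, 1.27 for Hoxa3, 0.026 for Hoxa5 and 1.47 for Hoxa10, and the block gave 0.32 for Hoxa2 and 0.45 for Hoxa10. With each library left out, values in Bec_LPCs against NPC_LPCs ran from -2.27 to 5.70 for Hoxa2, -4.22 to 7.02 for Hoxa3, -3.70 to 1.59 for Hoxa4, -3.08 to 2.75 for Hoxa5 and -1.10 to 3.63 for Hoxb4. In Bec_LPCs against Hep_LPCs they ran from -1.78 to 1.38 for Hoxa2, -2.61 to 1.17 for Hoxa3, -1.79 to 2.91 for Hoxa4, -1.18 to 0.83 for Hoxa5 and -2.27 to 1.58 for Hoxb4. In Hep_LPCs against NPC_LPCs they ran from -2.63 to 6.47 for Hoxa2, -4.38 to 8.57 for Hoxa3, -5.63 to 2.45 for Hoxa4, -2.93 to 3.27 for Hoxa5, -2.81 to 7.53 for Hoxa10 and -1.72 to 5.01 for Hoxb4. The turns came without library 1 of NPC_LPCs or of Hep_LPCs, except those of Hoxa2 and Hoxa10 without Hep_LPCs library 2 and of Hoxb4 without Bec_LPCs library 2. Where the library left in NPC_LPCs is at 0 reads (Hoxa2, Hoxa3 and Hoxa10), the value depends on the prior count and is no bound. The cause was not tested.

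Over all genes, the count called in Bec_LPCs against NPC_LPCs (1458) was 2897 with DESeq2, 770 with the block, 2491 with only the 4 libraries and 115 to 2363 with each library left out. In Bec_LPCs against Hep_LPCs (4293) it was 489 to 4908 with each library left out. In Hep_LPCs against NPC_LPCs (98) it was 515 without the filter, 1517 with DESeq2, 5 with limma-voom, 1274 with all 6 libraries, 181 on log2(FPKM + 1) and 0 to 361 with each library left out, where edgeR gave 0 without either Hep_LPCs library (2062 and 2264 genes at an unadjusted p under 0.05). With library size alone the split of calls was 939 higher and 594 lower in Bec_LPCs against NPC_LPCs, beside 629 and 829, and 2703 and 1736 in Bec_LPCs against Hep_LPCs, beside 2075 and 2218. Of the levels summed by cluster, those of all Hox genes (4.89 CPM) and of HoxA (3.04 CPM) in Bec_LPCs moved by more than 1 SD with library size alone, to 5.29 and 3.29 CPM. The other 28 values, with that scaling or without members that share exons, did not. Fewer than 10 reads in most members limit every comparison.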
